A study of Mus musculus with 28 samples.

Results

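The question here was which RNAs responded differently to the fatty acid palmitate when they came down with wild-type PKR or with PKR altered in its RNA-binding motifs. The comparison uses 12 of the 28 libraries of the series, those of its dataset B, and every feature counted in them. Mouse embryonic fibroblasts (MEFs, connective tissue cells grown from mouse embryos) had been given back either wild-type PKR (WT) or a PKR mutated in every motif through which it binds double-stranded RNA (RM). Each of these was mock-treated or given 0.1 mM palmitic acid, a saturated fatty acid, and each of the 4 groups holds 3 libraries. PKR was immunoprecipitated from lysate, and the RNA in the precipitate was fragmented and sequenced with a small RNA kit. Neither the status of the cells' own PKR gene nor the promoter of the returned PKR is given in the labels. Column names in dataset B include 2hr, which the labels do not explain. The libraries are called biological replicates, and nothing says that they came from separate cultures, so the p-values measure the spread between these libraries, which may be technical.

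PKR is a serine/threonine kinase that dimerises on double-stranded RNA through its paired RNA-binding motifs and then phosphorylates the translation factor eIF2alpha and other proteins, which slows protein synthesis. It is known best from virus infection and is also active in cells under lipid stress. Small nucleolar RNAs (snoRNAs), which the series title links to PKR, are short folded nuclear RNAs cut mostly from introns. The C/D box class guides 2'-O-methylation and the H/ACA box class guides pseudouridylation of ribosomal and other RNAs.

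The measure is the interaction on the log2 scale, the palmitate change with WT minus the palmitate change with RM. A positive value means that the palmitate change was more positive with WT. There is no input RNA and no control precipitate among these samples, so the abundance of an RNA, its binding to PKR and background in the precipitate cannot be told apart, nor can fewer cells of a type be told from less RNA per cell. Levels are in CPM, a feature's counts relative to the scaled total of its library. Total counts ran from 2204502 to 7122087 per library, and the 3 RM palmitate libraries, with 3490435, 2204502 and 2696431, were the 3 shallowest. The TMM scaling factor, which corrects a library's total for its composition, lay between 1.001 and 1.136 in 10 libraries and was 0.8199 in RM palmitate replicate 2 and 0.6374 in RM palmitate replicate 3. These 2 libraries stand apart from the rest, and results below are given with and without them where they bear on a statement. A fit without them leaves 1 RM palmitate library, which is assumed to vary like the other groups. The cells matched their label: none of 15 fibroblast marker genes was at 0, and their summed level, in CPM of the library total before TMM scaling, was 9432 to 25980 and reached its lowest value in RM palmitate (9432 to 22460). Of 17 macrophage and lymphocyte markers 11 were at 0 and the sum was 4.99 to 8.90, and of 9 adipocyte markers 7 were at 0 and the sum was at most 0.454. Most markers of the remaining lists were detected, at sums far below that of the fibroblast list. At 0 were 2 of 10 endothelial (sum 22.3 to 44.1), 2 of 12 epithelial (7.79 to 32.5) and 3 of 9 muscle markers (1.81 to 6.81).

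The sequences of the small RNAs on which the results turn are given here so that their class can be read from the letters. The first 3 are H/ACA box snoRNAs, and the capitals mark ACA in the last 10 bases, the box from which the class takes part of its name. The next 2 are C/D box snoRNAs, and the capitals mark TGATGA within the first 20 bases (box C) and CTGA within the last 20 (box D). They are GENCODE M21 transcripts, written 5′ to 3′ on the strand of the RNA.
Snora34: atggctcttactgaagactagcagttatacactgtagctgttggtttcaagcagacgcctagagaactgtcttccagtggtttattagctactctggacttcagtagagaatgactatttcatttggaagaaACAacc
Snora2b: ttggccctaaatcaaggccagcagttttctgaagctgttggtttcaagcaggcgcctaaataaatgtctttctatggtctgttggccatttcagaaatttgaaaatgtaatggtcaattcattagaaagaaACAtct
Gm22806: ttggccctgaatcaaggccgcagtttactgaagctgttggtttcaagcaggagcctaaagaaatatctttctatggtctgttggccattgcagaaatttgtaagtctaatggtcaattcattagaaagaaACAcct
Snord92: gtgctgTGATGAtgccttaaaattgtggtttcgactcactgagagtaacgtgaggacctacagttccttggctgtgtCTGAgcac
Snord33: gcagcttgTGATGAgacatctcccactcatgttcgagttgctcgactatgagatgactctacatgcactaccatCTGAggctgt
ACA stood in the last 10 bases of 36 of the 38 H/ACA transcripts on the list (94.7%) and of 8 of the 72 C/D transcripts (11.1%). TGATGA stood in the first 20 bases of 48 of the 72 C/D transcripts (66.7%) and of 0 of the 38 H/ACA transcripts, and CTGA in the last 20 bases of 70 (97.2%) and 4 (10.5%). Only the strand of the RNA was searched. Gm22806 has no snoRNA symbol in the files, and its 136 bases are 92% identical to the 137 bases of Snora2b (edit distance 11), so reads of the pair can be mistaken for each other.

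The mature sequences of 4 miRNAs, from RefSeq on GRCm38.p6, show the seed (bases 2 to 8) in capitals. The first comes from the miRNA with the highest interaction and the other 3 from clusters of the miR-17 type.
mmu-miR-763: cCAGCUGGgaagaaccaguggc
mmu-miR-19b-3p: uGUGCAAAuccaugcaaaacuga
mmu-miR-20a-5p: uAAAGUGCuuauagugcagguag
mmu-miR-106b-5p: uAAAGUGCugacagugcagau
The last 2 share the seed AAAGUGC, and the others have seeds of their own.

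No single RNA passed the test of the interaction over the whole table. edgeR's quasi-likelihood test with Benjamini-Hochberg adjustment called 0 of 12466 features (0%) at an adjusted p under 0.05, and the smallest adjusted p was 0.078. At an unadjusted p under 0.05 there were 2011 features (16.1%), 991 with a higher change with WT (7.95%) and 1020 with a lower one (8.18%). DESeq2 called 375 features (3.01%) and limma voom with sample weights 1061 (8.51%) on the same counts. The median interaction of all features tested was 0.02. For palmitate within each kind of PKR the same fit did call features: with WT 1175 rose (9.43%) and 763 fell (6.12%), and with RM 633 rose (5.08%) and 306 fell (2.45%). These counts moved with single libraries. With RM 104 rose and 33 fell without RM mock replicate 2, and 1438 rose and 1233 fell without RM palmitate replicate 1. With WT 660 rose and 263 fell without WT palmitate replicate 3.

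The count of calls for the interaction depended on single libraries. Without RM palmitate replicate 1 it was 903 (7.08%, 447 higher and 456 lower), without WT mock replicate 3 it was 110 (0.864%, 68 higher and 42 lower), without WT mock replicate 1 it was 5 and without WT palmitate replicate 1 it was 1. Leaving out any other single library gave 0 calls, and leaving out RM palmitate replicates 2 and 3 together also gave 0, with a smallest adjusted p of 0.239. Of the features called, 81 were shared by the fits without RM palmitate replicate 1 and without WT mock replicate 3. WT mock replicate 1 and RM palmitate replicate 1 had the lowest sample weights in limma voom, 0.294 and 0.352 against 0.618 to 2.56 in the other 10 libraries. What follows describes groups of RNAs by their values and by counts at an unadjusted p under 0.05, each read against the 7.95% and 8.18% of all features.

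**Figure D1:**
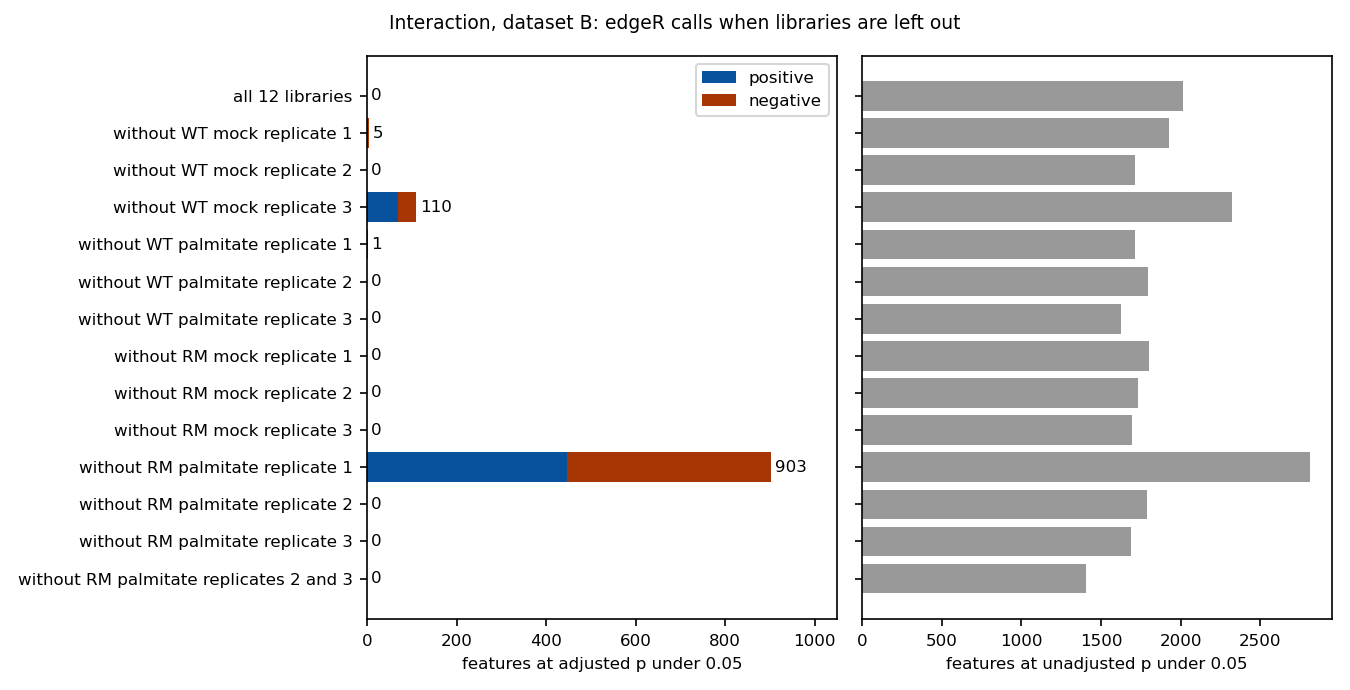
Number of features for the genotype by palmitate interaction in dataset B at an adjusted p under 0.05 (left, split into positive and negative interactions) and at an unadjusted p under 0.05 (right), edgeR, with all 12 libraries, with each left out in turn, and without RM palmitate replicates 2 and 3. On the left, the bar without RM palmitate replicate 1 reaches 903 and the one without WT mock replicate 3 reaches 110, and all 12 libraries give 0.

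The H/ACA box snoRNAs leaned to a higher palmitate change with WT. Of 38 on the list 37 passed the filter on low counts, and their median interaction was 0.94 against 0.02 over all features, with 32 values above 0. At an unadjusted p under 0.05 there were 22 higher and 0 lower, and the smallest adjusted p was 0.0898. With WT 32 of the 37 rose after palmitate (median 1.60, background 9.43%), and with RM 7 rose (median 0.65, background 5.08%). The share of all counts that fell on the list, taken before TMM scaling, was lowest in WT mock. It was 0.109%, 0.100% and 0.122% in the WT mock libraries, 0.236%, 0.281% and 0.368% in WT palmitate, 0.284%, 0.292% and 0.274% in RM mock and 0.315%, 0.345% and 0.286% in RM palmitate. By this share the 3 WT mock libraries lay below the other 9, which overlapped one another. After TMM scaling, the list's median CPM was 14.2, 18.6 and 23.7 in WT mock and 45.3, 53.7 and 68.2 in WT palmitate. It was 47.8, 46.0 and 44.0 in RM mock and 58.5, 85.9 and 86.3 in RM palmitate. On that scale RM palmitate lay above RM mock without overlap. In mock-treated cells 28 of the 37 were lower with WT than with RM (background 7.88%, median −1.34), and after palmitate 5 were (background 4.2%, median −0.45).

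Snora34, which lies within the feature 2310037I24Rik on the same strand at chr15:98350147-98350284 (mm9, minus strand), is an example with high counts. Its CPM was 31.4, 39.4 and 42.5 in WT mock, 82.1, 96.9 and 143 in WT palmitate, 110, 114 and 121 in RM mock, and 141, 170 and 118 in RM palmitate. WT mock lay below every other library, and the other 3 groups overlapped. The palmitate change was 1.51 ± 0.19 (SE) with WT and 0.32 ± 0.19 with RM, and the interaction was 1.19 ± 0.26 (edgeR adjusted p = 0.0898, range over 20 alternatives 0.0135 to 0.321).

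Snora2b, in the same host feature (chr15:98356777-98356913, mm9, minus strand), had 2.07, 3.65 and 5.02 CPM in WT mock, 11.4, 14.1 and 17.4 in WT palmitate, 11, 11.5 and 11.3 in RM mock and 10.9, 20.5 and 15.2 in RM palmitate. Its near copy Gm22806 (chr13:51743568-51743703, mm9, plus strand, within Cks2) had 1.93, 4.11 and 2.68, then 10.2, 19.5 and 19.9, then 12.3, 12.5 and 15.1, then 17.2, 18.8 and 12.8 in the same order of groups. In both the WT mock libraries were lowest and the other groups overlapped. The interaction was 1.59 ± 0.39 for Snora2b (edgeR adjusted p = 0.102, alternatives 0.0126 to 0.265) and 2.18 ± 0.40 for Gm22806 (edgeR adjusted p = 0.078, alternatives 0.00139 to 0.251). Gm22806 is among the 5 features with the smallest p in the higher direction, and rests on 14 to 27 reads in each WT mock library.

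Some H/ACA snoRNAs also rose with RM. Snora23, within the importin gene Ipo7 (chr7:117189878-117190061), rose with both kinds of PKR, by 1.64 ± 0.16 with WT and 0.80 ± 0.15 with RM. Its CPM was 8.13, 11 and 11 in WT mock, 25.8, 32.3 and 35.6 in WT palmitate, 28.0, 31.5 and 32.2 in RM mock and 46.7, 54.3 and 59.5 in RM palmitate. RM palmitate was the highest group and WT mock the lowest, without overlap, and the interaction was 0.84 ± 0.22 (edgeR adjusted p = 0.12, alternatives 0.0267 to 0.271). Snora41, within the elongation factor gene Eef1b2 (chr1:63225578-63225709), had 3.18 to 4.11 CPM in WT mock, 9.60 to 10.4 in WT palmitate, 10.8 to 13.0 in RM mock and 10.04 to 16.6 in RM palmitate, with an interaction of 1.11 ± 0.30 (edgeR adjusted p = 0.12, alternatives 0.0211 to 0.265).

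The median interaction of the H/ACA list stayed between 0.73 (without WT palmitate replicate 3) and 1.12 (without WT mock replicate 3) when any one library was left out, and was 1.27 without RM palmitate replicates 2 and 3. The number that rose with WT ran from 26 without WT palmitate replicate 3 (background 5.24%) to 33 in 3 of the fits, such as that without RM palmitate replicate 1 (background 10.9%). The number that rose with RM was less stable, from 1 without RM mock replicate 2 (background 0.825%) to 18 without RM palmitate replicate 1 (background 11.3%), with 14 without WT mock replicate 1 (background 7.79%) and 4 without RM mock replicate 3 (background 2.55%). It was 2 without RM mock replicate 1, RM palmitate replicate 2 or RM palmitate replicate 3 (backgrounds 0.954%, 1.23% and 1.37%), and 0 without RM palmitate replicates 2 and 3 (background 0.27%).

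C/D box snoRNAs leaned the same way, with a smaller median that moved with single libraries. Of 72 on the list 70 passed the filter; the median interaction was 0.27, 43 were above 0, and 16 were higher and 0 lower at an unadjusted p under 0.05. With WT 28 rose after palmitate (median 0.87, background 9.43%) and with RM 3 rose (median 0.49, background 5.08%). The number that rose with WT ran from 16 without WT palmitate replicate 3 (background 5.24%) to 51 without WT mock replicate 1 (background 7.51%), and was 18 without WT mock replicate 2 (background 5.76%). The number that rose with RM ran from 0 without RM mock replicate 2, RM palmitate replicate 2 or both RM palmitate replicates 2 and 3 to 13 without WT mock replicate 1 (background 7.79%), and was 10 without RM palmitate replicate 1 (background 11.3%). The share of counts on the list was 2.18% in WT mock replicate 1 but 0.289% and 0.357% in the other WT mock libraries, against 0.747% to 1.28% in the other 9. Without WT mock replicate 1 the median interaction was 0.90 and 36 were higher at an unadjusted p under 0.05 (background 7.78%), against 10 without RM palmitate replicate 1 (background 11.7%). The median was 0.07, 0.02, 0.15 and 0.14 without RM palmitate replicate 1, WT mock replicate 2, WT mock replicate 3 and WT palmitate replicate 3, and 0.42 without RM palmitate replicate 2, and 0.75 without RM palmitate replicates 2 and 3.

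Snord92, within Wdr43 (chr17:71980621-71980705, mm9, plus strand), had the smallest p among C/D snoRNAs. Its CPM was 32.1, 35.3 and 38.1 in WT mock, 78.2, 83.9 and 137 in WT palmitate, 105, 152 and 113 in RM mock and 78.6, 121 and 90.4 in RM palmitate. WT mock was lowest and the other groups overlapped. The palmitate change was 1.5 ± 0.23 with WT and −0.36 ± 0.23 with RM, with an interaction of 1.86 ± 0.32 (edgeR adjusted p = 0.078, alternatives 0.000192 to 0.251). Snord118, the U8 snoRNA needed to process large-subunit ribosomal RNA, had 182, 224 and 229 CPM in WT mock, 534, 546 and 976 in WT palmitate, 879, 1072 and 1321 in RM mock and 1297, 1357 and 1599 in RM palmitate. RM palmitate overlapped RM mock, and both WT groups were separate from each other. Its interaction was 1.32 ± 0.32 (edgeR adjusted p = 0.102, alternatives 0.0125 to 0.4).

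Snord33, one of the intronic snoRNAs of the ribosomal protein gene Rpl13a (chr7:52382234-52382317), had 18.6, 14 and 17.1 CPM in WT mock, 39, 36.5 and 60.6 in WT palmitate, 49.9, 60.6 and 61.1 in RM mock and 47.3, 64.9 and 80.4 in RM palmitate. Again only WT mock was set apart. The interaction was 1.31 ± 0.30 (edgeR adjusted p = 0.102, alternatives 0.00721 to 0.247). Snord45b, within Rabggtb, which encodes a prenylating enzyme subunit, had an interaction of 1.0 ± 0.22 (edgeR adjusted p = 0.0898, alternatives 0.00677 to 0.247), and Snord60 one of 1.06 ± 0.26 (edgeR adjusted p = 0.102, alternatives 0.00825 to 0.265). Both rose with WT, by 1.47 ± 0.16 and 1.34 ± 0.19, and their changes with RM were 0.47 ± 0.15 and 0.28 ± 0.18. Nothing says whether counting used the strand, so reads of an intronic snoRNA cannot be told from reads of its host transcript.

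A further 224 tested features typed as snoRNA carry no Snora or Snord symbol. Their median interaction was 0.77, with 77 higher and 1 lower at an unadjusted p under 0.05, and the palmitate medians were 1.38 with WT and 0.54 with RM. The median was 0.53 without RM palmitate replicate 1, the lowest value with any one library left out, and 1.22 without RM palmitate replicates 2 and 3. Small Cajal body RNAs, which guide modification of spliceosomal RNAs, had a median of 0.31 over 9 tested, with 0 higher and 2 lower at an unadjusted p under 0.05. That median ran from 0.03 without RM palmitate replicate 1 to 0.57 without WT mock replicate 3. There were 3 higher and 2 lower without RM palmitate replicate 3 (backgrounds 7.51% and 5.82%), and without RM palmitate replicates 2 and 3 the median was 0.89, with 3 higher and 0 lower (backgrounds 6.68% and 4.13%). The 2 were Scarna3a (−1.22 ± 0.38) and Scarna3b (−1.52 ± 0.44), whose levels in RM palmitate replicates 2 and 3 were 18.3 and 27.4, and 18.8 and 22.2 CPM, above every other library, and at 12.6 and 9.46 in RM palmitate replicate 1.

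Most listed long noncoding RNAs that stay in the nucleus leaned to a higher palmitate change with WT. The list holds 5, and 4 were higher at an unadjusted p under 0.05 with a list median of 1.37. The lowest value on the list went the other way, at −0.87. Malat1, a nuclear speckle RNA, had 185, 334 and 745 CPM in WT mock, 1425, 1752 and 2622 in WT palmitate, 1500, 1914 and 2044 in RM mock and 2291, 3266 and 3189 in RM palmitate. Its WT mock libraries lay below all others and differed widely among themselves. It rose with WT by 2.20 ± 0.44, the change with RM was 0.68 ± 0.42, and the interaction was 1.52 ± 0.60 (edgeR adjusted p = 0.248, alternatives 0.0299 to 0.541).

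Xist, which coats the inactive X chromosome, had 73.0, 78.9 and 122 CPM in WT mock, 226, 253 and 361 in WT palmitate, 289, 347 and 359 in RM mock and 431, 552 and 514 in RM palmitate. The 2 palmitate groups did not overlap their mock groups, and WT palmitate overlapped RM mock. The interaction of Xist was 1.03 ± 0.29 (edgeR adjusted p = 0.131, alternatives 0.0344 to 0.407), that of the imprinted Meg3 1.73 ± 0.56 (edgeR adjusted p = 0.186, alternatives 0.0116 to 0.436), and that of Neat1, the paraspeckle RNA and a feature picked after its values were seen, 1.37 ± 0.56 (edgeR adjusted p = 0.277, alternatives 0.0302 to 0.525). Without WT mock replicate 3, the highest WT mock library for Malat1, Meg3 and Xist, the list median was 1.99 and all 4 were called (background 0.534%). Without any other single library it lay between 1.06 and 1.56, and without RM palmitate replicates 2 and 3 it was 1.7. The 4 at an unadjusted p under 0.05 became 2 without RM mock replicate 3, RM palmitate replicate 1 or 3, WT mock replicate 2 or WT palmitate replicate 3 (backgrounds 6.5%, 11.7%, 7.51%, 6.64% and 6.35%), and also without RM palmitate replicates 2 and 3.

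**Figure D2:**
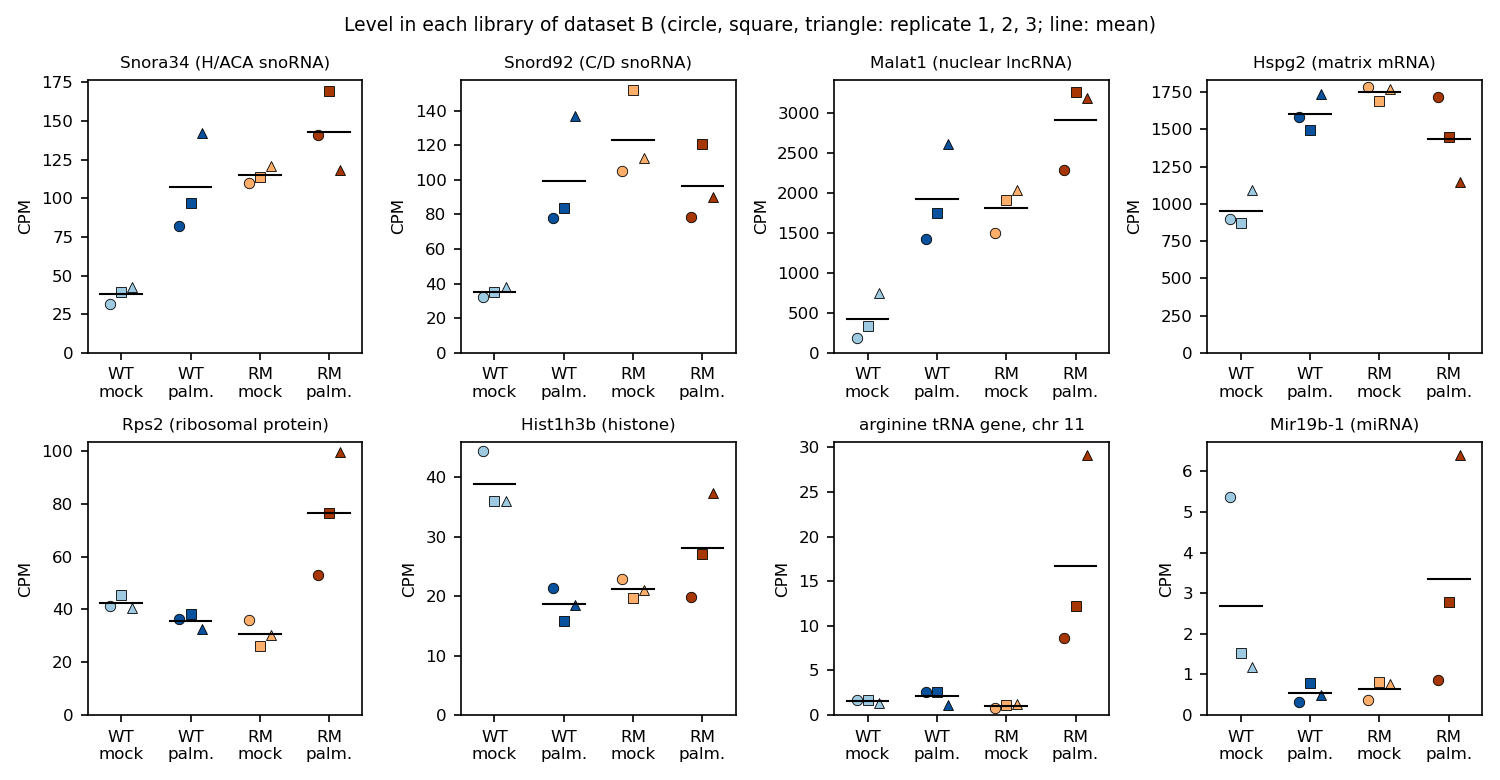
Level in CPM (linear axes that start at 0) of 8 RNAs in each of the 12 libraries of dataset B, by group, with 1 point per library, a marker shape per replicate and a line at the group mean. Snora34, Snord92, Malat1 and Hspg2 are lowest in the 3 WT mock libraries, and Rps2 and the arginine tRNA are highest in the 3 RM palmitate libraries.

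Several classes of short or structured RNA leaned the other way, with a palmitate change more positive with RM. For tRNA genes 233 of 433 features passed the filter. Their median interaction was −2.50, 231 were below 0, and 160 were lower and 0 higher at an unadjusted p under 0.05. Their median CPM was 1.86 to 3.91 in the other groups and 5.16, 12.7 and 28.6 in RM palmitate. A tRNA gene can pass the filter through the 3 RM palmitate libraries alone, which can tilt these counts below 0. Palmitate medians were −0.22 with WT, where 2 rose and 3 fell (backgrounds 9.43% and 6.12%). With RM the median was 2.28, and 95 rose (background 5.08%). The arginine tRNA chr11.tRNA1023-ArgTCG (chr11:115275093-115275165) had the smallest p. Its CPM was 1.65, 1.67 and 1.34 in WT mock, 2.56, 2.60 and 1.17 in WT palmitate, 0.743, 1.09 and 1.28 in RM mock and 8.60, 12.2 and 29.1 in RM palmitate. RM palmitate lay above every other library, and the interaction was −3.57 ± 0.69 (edgeR adjusted p = 0.078, alternatives 0.0016 to 0.247). It rests on 5 to 50 reads per library, and near-identical tRNA genes can share reads.

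The tRNA result moved with the RM libraries. The number of tRNA genes that rose with RM was 11, 16 and 43 without RM mock replicate 1, 2 and 3, and 184, 21 and 19 without RM palmitate replicate 1, 2 and 3 (backgrounds 0.954%, 0.825%, 2.55%, 11.3%, 1.23% and 1.37%). It was 1 without RM palmitate replicates 2 and 3 (background 0.27%). The median interaction ranged from −2.99 to −1.77 with any one library left out and was −1.09 without those 2. The 160 at an unadjusted p under 0.05 became 105 without RM mock replicate 1 (background 6.65%), 102 without RM palmitate replicate 3 (background 5.82%) and 40 without RM palmitate replicates 2 and 3 (background 4.13%). Without RM palmitate replicate 1 there were 96 tRNA genes called lower for the interaction (background 3.58%).

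Mitochondrially encoded RNAs behaved alike. Of 37 on the list 35 passed the filter, with a median interaction of −2.49, 33 below 0, and 22 lower and 0 higher at an unadjusted p under 0.05. Their share of all counts was 0.882% to 1.5% with WT, 1.33%, 2.41% and 3.36% in RM mock and 4.44%, 7.69% and 11% in RM palmitate. By this share the RM palmitate libraries were the 3 highest, without overlap. The list's median CPM was 29.8, 49.9 and 129 in RM palmitate, and 55.0 in WT mock replicate 1. By that median RM palmitate replicates 1 and 2 lay below WT mock replicate 1. In the remaining libraries it was 9.29 to 24.7. mt-Rnr1, the small mitochondrial ribosomal RNA, had 3654, 3800 and 4013 CPM in WT mock, 3691, 6044 and 5606 in WT palmitate, 4869, 8405 and 12390 in RM mock and 18574, 44374 and 81635 in RM palmitate. It rose with RM by 2.49 ± 0.46, the change with WT was 0.42 ± 0.44, and the interaction was −2.07 ± 0.63 (edgeR adjusted p = 0.141, alternatives 0.0191 to 0.701). The list median was −1.56 without WT mock replicate 1, where these RNAs were highest within WT mock, between −2.87 and −1.85 without any other single library, and −1.28 without RM palmitate replicates 2 and 3. The 22 at an unadjusted p under 0.05 became 11 without WT mock replicate 1 (background 7.51%) or RM palmitate replicate 3, 14 without RM mock replicate 1 or WT palmitate replicate 1 (background 6.52%), and 2 without RM palmitate replicates 2 and 3.

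Other structured small RNAs, a list of 9, had a median of −1.80 with 5 lower and 0 higher at an unadjusted p under 0.05. Rmrp, the RNA of the RNase MRP enzyme, had 498, 669 and 650 CPM in WT mock, 706, 909 and 694 in WT palmitate, 696, 434 and 487 in RM mock and 821, 1886 and 2041 in RM palmitate. RM palmitate replicates 2 and 3 stood above all other libraries and replicate 1 within the range of WT palmitate. Its interaction was −1.21 ± 0.41 (edgeR adjusted p = 0.179, alternatives 0.00357 to 0.795). Rnu7, the U7 RNA that trims histone mRNA ends, had an interaction of −1.82 ± 0.54, and Rny1, a Y RNA bound by the Ro60 protein, −2.62 ± 0.94. Rn7sk, which restrains transcription elongation and was picked after its values were seen, had 11060, 23034 and 43162 CPM in RM palmitate and 959 to 5278 in the other 9 libraries, with an interaction of −2.68 ± 0.99 (edgeR adjusted p = 0.232, alternatives 0.137 to 0.699). The 5 lower became 3 without RM mock replicate 1 or WT palmitate replicate 1 (backgrounds 6.65% and 6.52%), 1 without RM palmitate replicate 3 (background 5.82%) and 8 without RM palmitate replicate 1 (background 10.4%). Without RM palmitate replicates 2 and 3 the list median was −0.79, with 0 lower and 1 higher.

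Ribosomal RNA features, many of them near-identical copies that share reads, had a median of −1.30, with 58 of 112 lower at an unadjusted p under 0.05 and 0 higher. Without RM palmitate replicates 2 and 3 the median was −0.40 and the number lower fell to 4, below the share over all features (4.13%). The 238 tested features typed as snRNA showed no such lean with all libraries: their median interaction was −0.06, with palmitate medians of 1.75 with WT and 1.77 with RM. The median ran from −0.47 without RM palmitate replicate 1 to 0.40 without RM palmitate replicate 3, and was 1.01 without RM palmitate replicates 2 and 3.

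**Figure D3:**
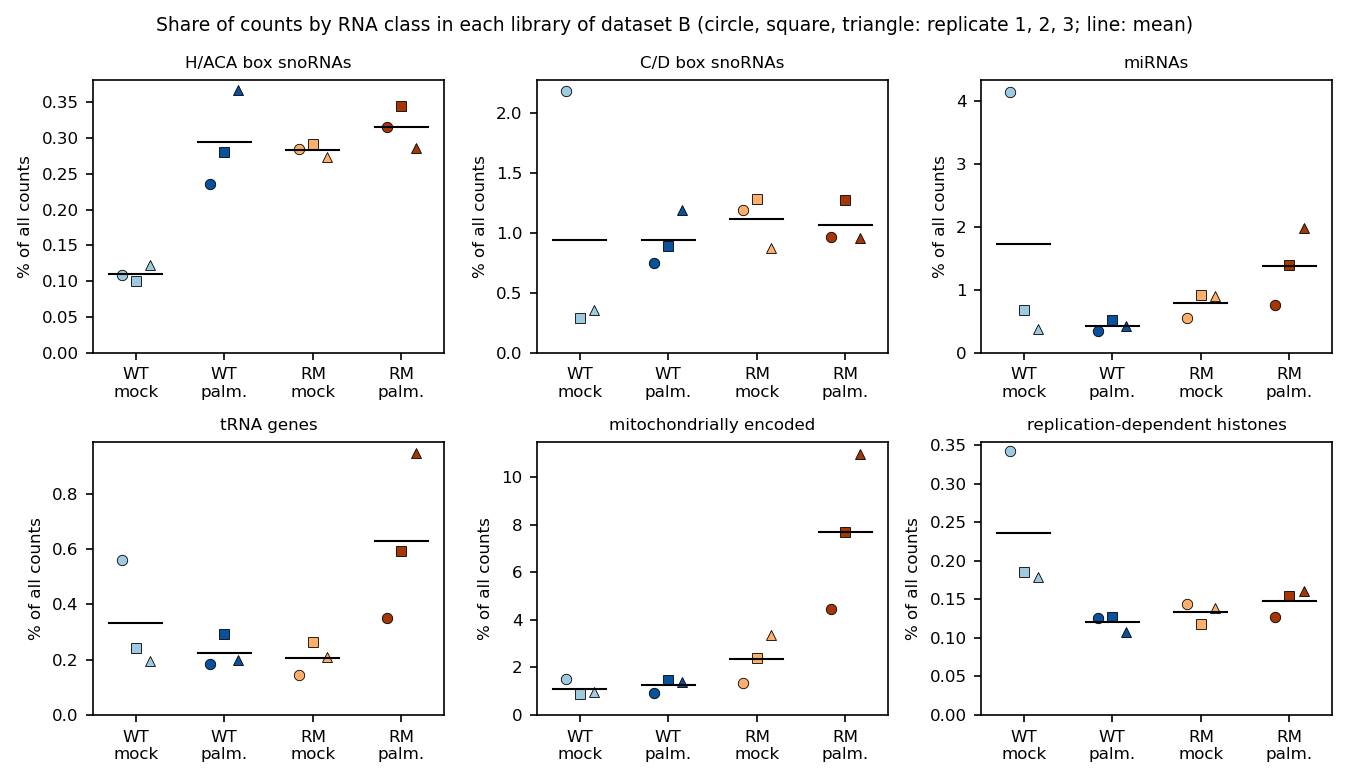
Share of all counts (percent, linear axes that start at 0) that fell on each of 6 classes of RNA in each of the 12 libraries of dataset B, with 1 point per library, a marker shape per replicate and a line at the group mean. H/ACA snoRNAs are lowest in WT mock, mitochondrial RNA is highest in RM palmitate, and the C/D snoRNA and miRNA shares of WT mock replicate 1 (2.18% and 4.14%) stand far above those of the other WT mock libraries.

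For miRNAs, 173 of 600 on the list passed the filter, with the lowest median interaction of the lists, −3.20. As with tRNA genes, a locus can pass the filter through a single group where it is high, which can tilt the counts. At an unadjusted p under 0.05 there were 105 lower and 6 higher. The palmitate medians were −2.02 with WT and 1.28 with RM. The share of counts on the list was 4.14% in WT mock replicate 1 and 0.684% and 0.380% in WT mock replicates 2 and 3, against 0.339% to 1.98% in the other groups. Without WT mock replicate 1 the median interaction was −1.73 and the palmitate median with WT was −0.30. The 105 at an unadjusted p under 0.05 became 53 without RM palmitate replicate 3, 69 without RM mock replicate 1 and 70 without WT palmitate replicate 1 or 3 (background 6.54% for the latter). Without RM palmitate replicates 2 and 3 the median interaction was −2.21, and 6 were lower at an unadjusted p under 0.05 (background 4.13%).

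Mir106b, from the cluster within the replication gene Mcm7, and Mir20a and Mir19b-1, from the cluster of the host transcript Mir17hg, are the loci of the other miRNAs printed above. Mir106b had 11.6, 3.04 and 1.5 CPM in WT mock, 0.800, 1.30 and 1.0 in WT palmitate, 1.49, 2.05 and 1.02 in RM mock and 3.73, 6.65 and 14 in RM palmitate. WT mock lay above WT palmitate and RM palmitate above RM mock, both without overlap. Its interaction was −4.67 ± 1.14 (edgeR adjusted p = 0.123, alternatives 0.00103 to 0.441), and that of Mir19b-1 was −4.58 ± 1.13 (edgeR adjusted p = 0.103, alternatives 0.00811 to 0.54). Mir20a, with the same seed as Mir106b, had −2.96 ± 0.81 (edgeR adjusted p = 0.121, alternatives 0.0279 to 0.401). Mir20a and Mir106b were picked after their values were seen. Without WT mock replicate 1 the 3 values were −3.40, −3.54 and −2.0, and the loci hold 2 to 84 reads per library.

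Against the lean of the class, Mir763, within the chromatin gene Hmga2 (chr10:119885047-119885166), had the highest value, 2.89 ± 0.63 (edgeR adjusted p = 0.0898, alternatives 0.00948 to 0.251). Its CPM was 0.138, 0.457 and 0.836 in WT mock, 3.04, 3.39 and 5.51 in WT palmitate, 2.85, 5.18 and 5.37 in RM mock and 4.30, 5.54 and 5.25 in RM palmitate. Only WT mock was apart from the rest, as for Snora34 and Snord92, on 1 to 5 reads in each of its libraries. Whether the reads at these loci are mature miRNA, precursor or host transcript cannot be told from the counts.

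Replication-dependent histone mRNAs, which end in a stem-loop in place of a poly(A) tail, all had values below 0. Of 67 on the list 63 passed the filter, with a median of −1.21 and 58 lower at an unadjusted p under 0.05. With WT 27 fell after palmitate and 0 rose (median −0.79), and with RM 2 rose and 0 fell (median 0.55), against backgrounds of 6.12% that fell with WT and 5.08% that rose with RM. Hist1h3b had 44.5, 36.1 and 35.9 CPM in WT mock, 21.4, 15.9 and 18.5 in WT palmitate, 22.9, 19.8 and 21 in RM mock and 19.8, 27.2 and 37.3 in RM palmitate. WT mock was above WT palmitate and RM mock without overlap, and RM palmitate replicate 3 reached the level of WT mock. The palmitate change was −1.05 ± 0.18 with WT and 0.36 ± 0.19 with RM, and the interaction was −1.41 ± 0.26 (edgeR adjusted p = 0.078, alternatives 0.00172 to 0.299).

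Hist1h2ad (−1.59 ± 0.31, edgeR adjusted p = 0.0898, alternatives 0.00313 to 0.311) and Hist1h3f (−1.39 ± 0.29, edgeR adjusted p = 0.0898, alternatives 0.00403 to 0.329) also had WT mock above WT palmitate and RM mock without overlap. Histone genes are close copies of one another, so reads can be split among them. The median lay between −1.54 and −1.0 with any one library left out, and was −0.73 without RM palmitate replicates 2 and 3, where the palmitate median with RM was −0.06 in place of 0.55. Without RM palmitate replicate 1 there were 47 called lower for the interaction (background 3.58%) and without WT mock replicate 3 there were 9 (background 0.33%). The number that fell with WT ranged from 8 without WT palmitate replicate 3 (background 2.09%) to 40 without RM palmitate replicate 1 (background 7.88%), with 15 without WT palmitate replicate 2 (background 2.48%). The number that rose with RM was 31 without RM palmitate replicate 1 (background 11.3%), 9 without WT mock replicate 1 (background 7.79%) and 0 to 1 without any other single library. The 58 lower at an unadjusted p under 0.05 became 17 without RM palmitate replicates 2 and 3 (background 4.13%).

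Ribosomal protein mRNAs, whose translation responds to nutrient signals, leaned the same way by less. Of 86 on the list 82 passed the filter, with a median of −0.51, 75 below 0, and 32 lower and 0 higher at an unadjusted p under 0.05. Rps2 had 41.3, 45.5 and 40.5 CPM in WT mock, 36.5, 38.3 and 32.6 in WT palmitate, 36.2, 26.1 and 30.2 in RM mock and 53.1, 76.5 and 99.7 in RM palmitate. RM palmitate lay above every other library. Rps2 rose with RM by 1.29 ± 0.19, and the change with WT was −0.25 ± 0.18. Its interaction was −1.54 ± 0.26 (edgeR adjusted p = 0.078, alternatives 0.00055 to 0.247), and 2 snoRNAs, Snora64 and Snora78, lie within it.

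Rpl26 had 53.0, 60.7 and 55.5 CPM in WT mock, 41.1, 43.8 and 36.8 in WT palmitate, 45.1, 39.8 and 42.5 in RM mock and 67.7, 56.5 and 86.3 in RM palmitate. It fell with WT (−0.48 ± 0.14) and rose with RM (0.72 ± 0.14), and the mock and palmitate libraries of neither PKR overlapped. Its interaction was −1.20 ± 0.20 (edgeR adjusted p = 0.078, alternatives 0.000554 to 0.244) and −1.15 without RM palmitate replicates 2 and 3. For the list, in contrast, the median was −0.19 without those 2 libraries, and −0.34 without WT mock replicate 2. The 32 at an unadjusted p under 0.05 became 49 without RM palmitate replicate 1 (background 10.4%), 19 without RM palmitate replicate 3 and 13 without RM palmitate replicates 2 and 3. With total counts as the only scaling, which moves the median of all features to 0.35, the list median was −0.13.

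mRNAs of nuclear-encoded oxidative phosphorylation subunits had a median of −0.42 over 74 tested of 75, with 21 lower and 1 higher at an unadjusted p under 0.05. With WT 16 fell and 0 rose, and with RM 3 fell and 4 rose, against backgrounds of 6.12% that fell with WT, and 2.45% and 5.08% that fell and rose with RM. Atp5j2, a subunit of ATP synthase, had 45.5, 36.5 and 35.1 CPM in WT mock, 23.2, 24.2 and 22.4 in WT palmitate, 27.9, 26.7 and 23.8 in RM mock and 26.7, 40.5 and 37.9 in RM palmitate. WT mock lay above WT palmitate and RM mock without overlap. Its interaction was −1.14 ± 0.22 (edgeR adjusted p = 0.078, alternatives 0.00222 to 0.317). Cox5b, of cytochrome c oxidase, had −1.0 ± 0.22 (edgeR adjusted p = 0.0898, alternatives 0.0138 to 0.258), and −1.02 without RM palmitate replicates 2 and 3. The list median without those 2 libraries was −0.16 with 9 lower, and with total counts as scaling −0.06. The number that fell with WT was 6 without WT mock replicate 2 or WT palmitate replicate 3 (backgrounds 2.78% and 2.09%), 8 without WT palmitate replicate 1 (background 2.83%), 9 without WT palmitate replicate 2 and 10 without RM mock replicate 2 (background 4.15%). With RM 14 rose and 8 fell without RM palmitate replicate 1 (backgrounds 11.3% and 9.67%), while 0 did either without RM mock replicate 2 or RM palmitate replicate 2 or 3.

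Mt1, a metallothionein that binds zinc, was among the 5 smallest p in the lower direction, with 28.9, 27.2 and 27.1 CPM in WT mock, 23.7, 24.0 and 22.6 in WT palmitate, 16, 16.6 and 19.4 in RM mock and 27.0, 28.3 and 42.6 in RM palmitate. It rose with RM by 0.90 ± 0.16, the change with WT was −0.25 ± 0.15, and RM mock was the lowest group without overlap. The interaction was −1.15 ± 0.22 (edgeR adjusted p = 0.078, alternatives 0.00334 to 0.251).

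**Figure D4:**
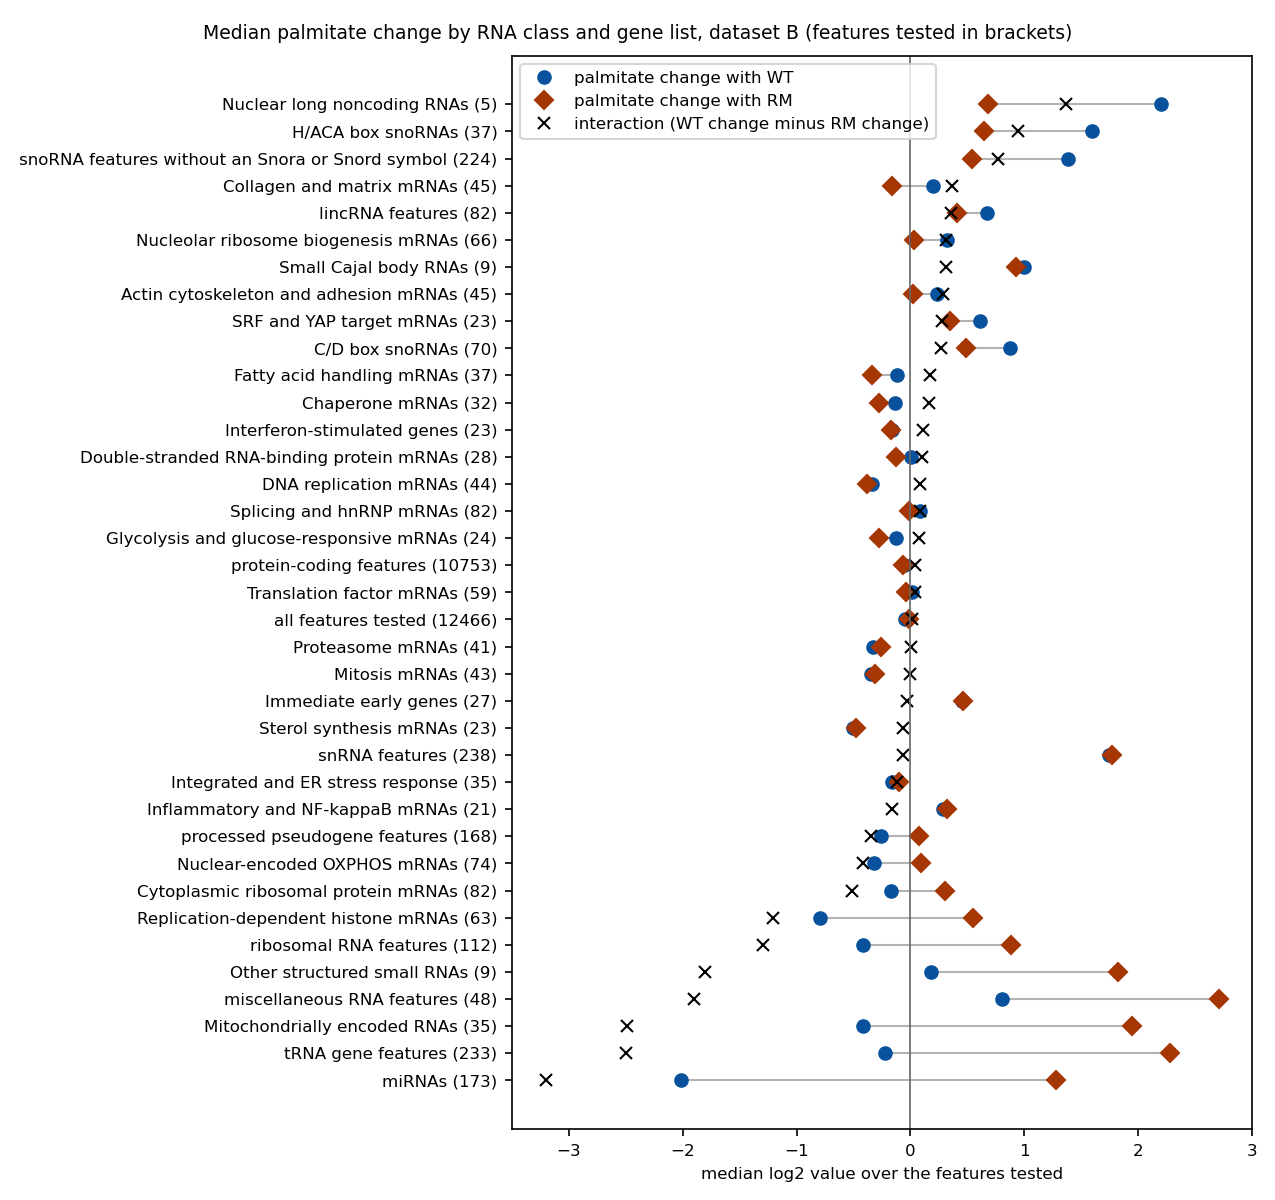
Median palmitate change with WT (circles), with RM (diamonds) and median interaction (crosses) on the log2 scale for each RNA class and gene list in dataset B, with the number of features tested in brackets. Nuclear long noncoding RNAs and H/ACA snoRNAs lie at the top with medians of 1.37 and 0.94, and miRNAs at the bottom with −3.20.

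Among single mRNAs, some had a higher palmitate change with WT. Irf2bp1, a corepressor bound by IRF2, had 11.7, 12.5 and 14.2 CPM in WT mock, 20.6, 24.2 and 20.2 in WT palmitate, 17.8, 15.4 and 19.2 in RM mock and 12.3, 12.2 and 12.8 in RM palmitate. The RM palmitate libraries lay below all RM mock libraries and within the range of WT mock. Its interaction was 1.24 ± 0.22 (edgeR adjusted p = 0.078, alternatives 0.00627 to 0.247). Uhrf1bp1 (0.95 ± 0.17) and the helicase gene Helz2, named BC006779 in the files (1.0 ± 0.19), both with an edgeR adjusted p of 0.078 (alternatives 0.00373 to 0.247 and 0.00313 to 0.263), were lowest in WT mock. Their values without RM palmitate replicates 2 and 3 were 0.95 and 0.82.

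Collagen and matrix mRNAs, products of fibroblasts, had a median interaction of 0.36 over 45 tested of 46, with 35 above 0, and 16 higher and 1 lower at an unadjusted p under 0.05. Col4a2, a basement membrane collagen chain whose feature overlaps Col4a1 on the other strand, had 72.4, 82.4 and 89.8 CPM in WT mock, 141, 152 and 137 in WT palmitate, 115, 108 and 112 in RM mock and 126, 116 and 102 in RM palmitate. It rose with WT by 0.82 ± 0.12, the change with RM was 0.04 ± 0.12, and WT palmitate lay above all other libraries. Its interaction was 0.77 ± 0.16 (edgeR adjusted p = 0.0898, alternatives 0.00432 to 0.275). Hspg2, the matrix proteoglycan perlecan, had 898, 872 and 1093 CPM in WT mock, 1584, 1499 and 1738 in WT palmitate, 1786, 1694 and 1772 in RM mock and 1717, 1452 and 1145 in RM palmitate. WT mock was the lowest group, and RM palmitate replicate 3 was close to its highest library. The interaction of Hspg2 was 1.04 ± 0.26 (edgeR adjusted p = 0.102, alternatives 0.00216 to 0.265).

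mRNAs of the actin cytoskeleton and adhesion had a median of 0.29 (39 of 45 above 0, 15 higher and 2 lower at an unadjusted p under 0.05). Flnc, which crosslinks actin filaments, had 206, 250 and 297 CPM in WT mock, 517, 519 and 536 in WT palmitate, 418, 391 and 426 in RM mock and 488, 481 and 399 in RM palmitate. It rose with WT by 1.06 ± 0.15 to the highest group, and the change with RM was 0.15 ± 0.14. The interaction was 0.91 ± 0.20 (edgeR adjusted p = 0.0898, alternatives 0.00374 to 0.251). Acta2, smooth muscle actin and a target of the transcription factor SRF, had an interaction of 0.66 ± 0.19 (edgeR adjusted p = 0.131, alternatives 0.00451 to 0.407). Targets of SRF and YAP as a list had a median of 0.28, with 5 of 23 higher and 1 lower at an unadjusted p under 0.05, and 15 rose with WT and 7 with RM (backgrounds 9.43% and 5.08%). The 5 became 2 without RM mock replicate 2, RM palmitate replicate 2 or WT palmitate replicate 1 (backgrounds 6.93%, 7.32% and 7.07%) and 3 without RM mock replicate 3 or WT mock replicate 1 or 2. The number that rose with WT was 10 to 15 with any one library left out, and the number with RM was 4 without RM mock replicate 2 (background 0.825%) and 2 without RM palmitate replicates 2 and 3 (background 0.27%).

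mRNAs of nucleolar ribosome biogenesis factors had a median of 0.31 (52 of 66 above 0, 17 higher and 1 lower at an unadjusted p under 0.05), and 26 rose with WT against 3 with RM (backgrounds 9.43% and 5.08%). Rrp12, needed for export of ribosomal subunits, had 15.8, 20.1 and 18.1 CPM in WT mock, 42.7, 31.8 and 35.3 in WT palmitate, 27.4, 29.6 and 30.4 in RM mock and 35.3, 29.9 and 29.7 in RM palmitate. WT mock was lowest and the RM groups overlapped. The interaction was 0.89 ± 0.20 (edgeR adjusted p = 0.0898, alternatives 0.0103 to 0.329), and that of Polr1b, a subunit of RNA polymerase I, 0.59 ± 0.18 (edgeR adjusted p = 0.14, alternatives 0.0364 to 0.344). The 3 list medians without RM palmitate replicates 2 and 3 were 0.14 for collagen and matrix, 0.14 for actin and 0.15 for nucleolar factors, with 9, 10 and 8 higher at an unadjusted p under 0.05 (background 6.68%). Without RM palmitate replicate 1 there were 17, 15 and 8 called higher (background 3.51%), and 28 of the matrix and 26 of the actin mRNAs were higher at an unadjusted p under 0.05. For actin that count was 9 without RM mock replicate 3 (background 6.5%). The number of nucleolar mRNAs that rose with WT was 15 without WT mock replicate 2 (background 5.76%) or without WT palmitate replicate 1 (background 7.29%) or 3, and 16 without WT palmitate replicate 2 (background 6.65%).

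Transcript length went with the direction among the 10753 protein-coding features tested. They were put in 5 bins of length with near-equal numbers of features, set after the values had been seen. The median interaction was −0.13 in the shortest bin (204 to 1916 bases), 0.03, 0.04 and 0.08 in the next 3, and 0.15 in the longest (5506 to 113592 bases). At an unadjusted p under 0.05 there were 45 higher and 256 lower in the shortest bin, and 348 higher and 50 lower in the longest. The bins also differ in level and precision. Median CPM was 8.46 to 10.7 in the shortest and 35.1 to 40.1 in the longest, and the median SE was 0.35 and 0.21. Counts at a p threshold are therefore not directly comparable between bins. The palmitate median with WT was −0.21 in the shortest and 0.09 in the longest, and with RM it was −0.05 and −0.06. Histone, ribosomal protein and oxidative phosphorylation mRNAs are short, while Hspg2 (14267 bases) and Flnc (9199) are long, so length and function cannot be told apart for these lists. Without RM palmitate replicates 2 and 3 the medians of the shortest and longest bins were −0.09 and 0.08, with 119 lower in the shortest and 227 higher in the longest (backgrounds 4.13% and 6.68%). The longest bin had 550 higher without RM palmitate replicate 1 (background 11.7%).

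**Figure D5:**
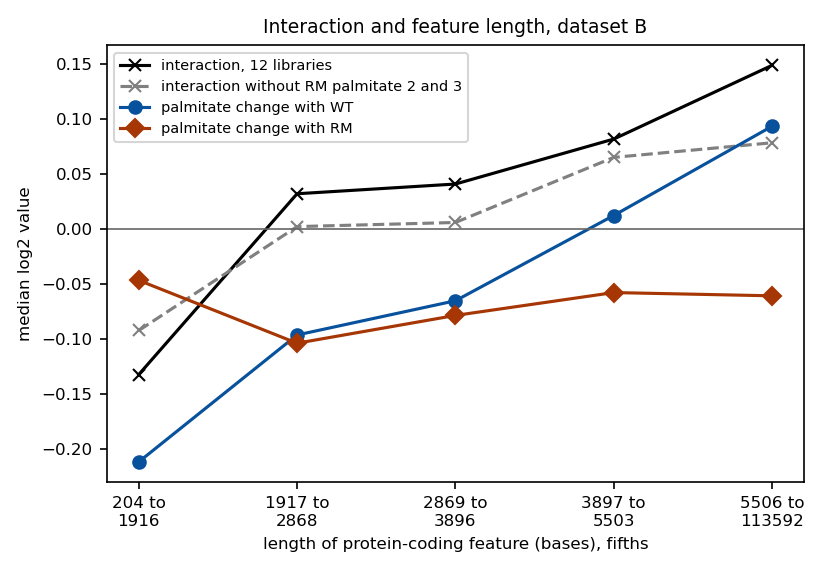
Median log2 value of protein-coding features of dataset B in 5 bins of feature length in bases, shortest to longest: the interaction with all 12 libraries (solid black) and without RM palmitate replicates 2 and 3 (dashed), and the palmitate change with WT (circles) and with RM (diamonds). The interaction goes from −0.13 to 0.15 with all libraries, and from −0.09 to 0.08 without those 2.

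With all 12 libraries, most lists tied to lipid, stress or interferon responses had medians near that of all features. Sterol synthesis mRNAs fell with both kinds of PKR, 15 of 23 with WT (median −0.50, background 6.12%) and 8 with RM (median −0.47, background 2.45%), and had a median interaction of −0.06. The number that fell with WT was 8 without WT palmitate replicate 2 and 9 without WT palmitate replicate 3 (backgrounds 2.48% and 2.09%). The number that fell with RM was 5 and 4 without RM mock replicate 1 and 2, and 3 and 5 without RM palmitate replicate 2 and 3 (backgrounds 0.612%, 0.262%, 0.356% and 0.371%), and 0 without both of the latter (background 0.0154%). Insig1, a brake on cholesterol synthesis, had 43.1, 39.1 and 42.5 CPM in WT mock, 27.7, 26.0 and 25.6 in WT palmitate, 30.6, 30.7 and 29.2 in RM mock and 23.2, 31.0 and 30.3 in RM palmitate. It fell with WT (−0.65 ± 0.12), and the change with RM was −0.12 ± 0.13. Immediate early genes had palmitate medians of 0.45 and 0.46 and a median interaction of −0.03, with 3 of 27 higher and 5 lower at an unadjusted p under 0.05, and 1 lower without RM palmitate replicate 3. Egr3, a zinc finger factor of this list, rose with both, by 2.40 ± 0.29 with WT and 1.12 ± 0.28 with RM, with an interaction of 1.28 ± 0.40 (edgeR adjusted p = 0.148, alternatives 0.0487 to 0.453).

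The integrated and endoplasmic reticulum stress list had a median of −0.11, with 2 of 35 higher and 1 lower at an unadjusted p under 0.05. With total counts as scaling, which moves the median of all features to 0.35, the sign of this median turned (0.22), as did those of the sterol (0.28) and immediate early lists (0.31). Of the 35 stress mRNAs, 1 rose and 1 fell with WT (backgrounds 9.43% and 6.12%), and 0 rose and 3 fell with RM (backgrounds 5.08% and 2.45%). The 3 became 0 without RM mock replicate 1 or 2 or RM palmitate replicate 2 (backgrounds 0.612%, 0.262% and 0.356%). Without RM palmitate replicate 1 they became 8 (background 9.67%). Xbp1, a factor of the unfolded protein response, had the smallest p there, at −1.01 ± 0.27 (edgeR adjusted p = 0.12, alternatives 0.00693 to 0.454). Interferon-stimulated genes had a median of 0.11 (4 of 23 higher, 2 lower), fatty acid handling mRNAs 0.18 (4 of 37 higher, 1 lower), chaperones 0.16 (3 of 32 higher, 1 lower), and inflammatory genes −0.16 (3 of 21 higher, 3 lower), all at an unadjusted p under 0.05. The sign of the inflammatory median turned with total counts as scaling (0.19). Medians of proteasome, DNA replication, mitosis, translation factor, and splicing and hnRNP mRNAs lay between −0.00 and 0.09, and that of mitosis mRNAs was 0.29 with total counts as scaling.

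These lists moved with the RM palmitate libraries. Without RM palmitate replicate 1 the number higher at an unadjusted p under 0.05 (background 11.7%) was 16 of 32 for chaperones (median 0.41), 10 of 37 for fatty acid handling (0.30), 6 of 23 for interferon-stimulated genes (0.45), 16 of 43 for mitosis (0.18), 13 of 44 for DNA replication (0.28), 13 of 59 for translation factors (0.06) and 16 of 82 for splicing and hnRNP mRNAs (0.14). With all libraries the last 4 of these counts were 0, 1, 5 and 6. Without RM palmitate replicates 2 and 3 the medians of chaperones, mitosis, DNA replication and proteasome mRNAs were −0.15, −0.29, −0.07 and −0.17, and 12 mitosis mRNAs were lower (background 4.13%). The 4 interferon-stimulated genes became 1 without WT palmitate replicate 3 (background 6.35%), and the list median ran from 0.00139 to 0.45 with any one library left out.

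The transcript of PKR itself, Eif2ak2, did not pass the test. It had 8.81, 7.61 and 7.52 CPM in WT mock, 8.0, 9.64 and 7.35 in WT palmitate, 10.5, 10.2 and 10.2 in RM mock and 10.04, 17.7 and 22.7 in RM palmitate. RM palmitate replicates 2 and 3 were the 2 highest libraries. The interaction was −0.60 ± 0.33 (edgeR adjusted p = 0.404, alternatives 0.0512 to 0.956). Without those 2 libraries its value was 0.09. mRNAs of other double-stranded RNA-binding proteins had a median of 0.10, with 3 of 28 higher and 0 lower at an unadjusted p under 0.05, and 6 higher without RM palmitate replicate 1. The 3 were the helicase Dhx30 (0.67 ± 0.19), Nkrf (0.80 ± 0.31) and the RNA editing enzyme Adar (0.44 ± 0.20).

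The same contrast was set beside dataset A, 12 other libraries of the same 4 groups that share no library with dataset B and whose column names lack 2hr. There edgeR called 0 of 11328 features (0%), with 469 at an unadjusted p under 0.05 (4.14%), DESeq2 called 0 and limma voom 0. The median interaction in dataset A was 1.12 for H/ACA snoRNAs (36 of 37 above 0, 12 higher and 0 lower at an unadjusted p under 0.05, backgrounds 2.19% and 1.95%) and 1.27 for C/D snoRNAs (70 of 70 above 0, 18 higher and 0 lower). Leaving out WT palmitate replicate 1 of dataset A lowered these medians to 0.65 and 0.74, the lowest values with any one of its libraries left out. Without RM palmitate replicate 2 of dataset A, which holds 254762 counts, they were 1.20 and 1.29.

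Features typed as snoRNA without an Snora or Snord symbol had a median of 1.05 in dataset A (192 of 203 above 0, 39 higher and 1 lower at an unadjusted p under 0.05), between 0.56 and 1.46 with any one library left out. Small Cajal body RNAs had 0.81 (8 of 9 above 0), between 0.40 and 1.1.

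Histone mRNAs had a median of −0.46 in dataset A (58 of 62 below 0), between −0.73 and −0.18 with any one library left out. Ribosomal protein mRNAs had −0.40 (66 of 81 below 0), between −0.53 and −0.06. Ribosomal RNA features had −0.53 (32 of 94 above 0), between −0.78 and 0.22. The value of 0.22, with the other sign, came without RM palmitate replicate 2 of dataset A, the library with 254762 counts. The list medians there were −0.26 for tRNA genes, −0.27 for mitochondrial RNAs and −0.15 for miRNAs, and all 3 were above 0 without RM palmitate replicate 3 of dataset A (0.06, 0.10 and 0.27). For nuclear long noncoding RNAs the median was 0.05 and for collagen and matrix mRNAs −0.19. Other structured small RNAs had 0.15 (5 of 9 above 0) and nucleolar ribosome biogenesis mRNAs −0.04 (26 of 64 above 0). Oxidative phosphorylation mRNAs had −0.13 (41 of 70 below 0), actin and adhesion mRNAs 0.16 (30 of 45 above 0), and SRF and YAP targets 0.08 (12 of 21 above 0). Whether the datasets differ was not tested.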

How the data were processed

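CASAVA 1.7.0 and 1.8.2, Novoalign and build mm9 are named in the submitters' processing notes. No counting tool or strand setting is given in the sources used here. The authors deposited whole-number counts per feature and library for 30210 features, and 48 other columns of values per sample were not used. Coordinates (mm9) were copied from the tables as 1-based. Names and snoRNA sequences come from GENCODE M21, in which 25773 of 29777 Ensembl identifiers were found, and of 600 listed miRNAs 520 have a mature sequence in RefSeq.

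The counts of the 12 libraries were fitted together in edgeR 4.0.16 (limma 3.58.1, R 4.3.3) with 1 mean per group, TMM scaling, the filter of filterByExpr and the robust quasi-likelihood test, two-sided, with Benjamini-Hochberg adjustment over 12466 features and a threshold of 0.05. Every adjusted p comes from this test unless another tool is named. SE is the log2 value divided by the square root of F. The biological coefficient of variation was 0.191. Levels are CPM after TMM scaling. Replicate pairs differed by more than sampling noise (lowest chi-square per degree of freedom 4.52), so each library counts once. The code was tested on simulated data.

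Named features are the 5 smallest p in each direction, up to 3 per list (5 for snoRNAs) and Eif2ak2, except 4 picked after their values were seen. Not every feature that this rule names is reported here. The comparison and the lists were chosen with earlier results of these data known. Alternatives were DESeq2 1.42.0, limma voom with sample weights, other scalings and filters, a replicate block, and leaving out libraries. Lists were described by counts and medians, with no set test. A feature can pass the low-count filter through a single group where it is high, which can tilt these counts for classes with low levels.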

Additional observations from a re-analysis of the deposited data

How the results depend on the processing

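With 3 libraries per group, the count of 0 calls for the interaction in dataset B changed under 5 of the alternatives that keep all libraries. It was 375 with DESeq2 (119 higher, 256 lower), 1061 with limma voom and sample weights (559 higher, 502 lower), 125 without the low-count filter (81 higher, 44 lower) and 119 with total counts as scaling (95 higher, 24 lower). It stayed 0 with RLE size factors, without mitochondrial and ribosomal RNA features, and without RM palmitate replicates 2 and 3. With any one library left out it was 0 to 903, of which 0 to 447 were higher and 0 to 456 lower. The count of 2011 at an unadjusted p under 0.05 was 3149 with limma voom. In dataset A the count was 88 without the low-count filter and 0 otherwise.

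No clear pairing by replicate number was seen. The 18 correlations of same-numbered deviations ran from −0.15 to 0.283 with a median of 0.0182, and 5 of 12 libraries correlated best with their own number. These values cannot show whether same-numbered libraries shared a day or a culture. With a replicate block 46 features were called (36 higher, 10 lower), of which 28 were also called without RM palmitate replicate 1. Over all features tested the block called 36 of 12466 higher. Those called higher with the block included 6 of 37 H/ACA snoRNAs, 4 of 70 C/D snoRNAs and 2 of 5 nuclear long noncoding RNAs. They also included 15 of 224 snoRNA features without an Snora or Snord symbol.

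Of the 50 features named in the text, 794 recomputed values kept their direction and their side of the threshold, 202 passed the threshold in the same direction, and 1 turned: Eif2ak2, at 0.0855 without RM palmitate replicates 2 and 3 (edgeR adjusted p = 0.956, alternatives 0.0512 to 0.956). Of 35 list medians 15 changed sign in at least 1 alternative, among them immediate early, sterol synthesis, mitosis and proteasome mRNAs, whose medians lie near 0. The cause of these changes was not tested. Depth limits low features most: the tRNA and miRNA loci named rest on fewer than 100 reads in each library.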
